A study of Mus musculus with 10 samples.

Results

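The levels of 36 activity-regulated immediate early genes were read in the hippocampus of Dp5/Dp1 mice and of their littermate controls. The 36 genes were given as a list of symbols by their known role, drawn up with earlier results of these data known, and all 36 were measured, each by 1 probe set, among 19938 genes in the table. Dp5/Dp1 mice are compound trisomic mice that carry the Dp5Yah and the Dp1Rhr duplication together, which are neighbouring segments of mouse chromosome 16 homologous to human chromosome 21, and they serve as a model of Down syndrome. The control mice are littermates from the same cross that carry neither duplication. Both groups held 5 male mice at 16 weeks of age, with 1 Affymetrix Mouse Gene 1.0 ST array per mouse made from the RNA of the full right and left hippocampus. The labels give the genetic background as C57BL/6N and the methods of the study as C57BL/6J. The same controls, whose arrays carry a mark of re-analysis, were also the comparison for the mice with Dp5Yah alone or Dp1Rhr alone, and those mice were not analysed here. No label or method gives what the mice were doing, or the hour, before the tissue was taken.

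Immediate early genes are transcribed within minutes of synaptic activity, before any new protein is made. Calcium entry and the ERK pathway activate CREB and the serum response factor, which already sit at the promoters of these genes. In the hippocampus the products fall into transcription factors that start a later wave of transcription (the FOS, JUN, EGR and NR4A families and NPAS4), proteins that act at the synapse (ARC, BDNF, NPTX2) and inhibitors that end the signal (the dual specificity phosphatases). Their RNA is short-lived, so its level follows the recent activity of the animal. In RNA of a whole tissue, fewer cells that express a gene and less RNA per cell cannot be told apart.

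The labels were checked against the duplicated segments, because the titles of the trisomic arrays name Dp5Yah first. All 14 checked genes of both segments, among them Ifnar2, Rcan1, Dyrk1a and Ttc3, were higher in the 5 Dp5/Dp1 arrays than in any control array, with mean differences of 0.27 to 0.66 on the log2 scale. None of the 36 immediate early genes lies on chromosome 16. All 10 markers of hippocampal neurons, such as Prox1 of the dentate gyrus and Wfs1 of CA1, lay above the median of every array. Array medians lay between 6.73 and 6.80 and arrays correlated at 0.996 to 0.999 across genes, which are not independent replicates. Markers of tissue next to the hippocampus varied between mice. The mean level of 12 choroid plexus markers was 6.96, 7.26, 8.23, 6.98 and 8.50 in Dp5/Dp1 arrays 1 to 5 and 8.88, 6.85, 7.00, 8.75 and 8.26 in control arrays 1 to 5, so both groups held arrays low and high in these markers. The mean of 8 habenula markers was highest in Dp5/Dp1 arrays 2 (7.93) and 5 (7.34), while the other 8 arrays lay between 6.52 and 7.03. All 8 had a higher mean in Dp5/Dp1, 1 at an unadjusted limma p under 0.05. Of 8 thalamus markers 1 had a higher mean in Dp5/Dp1, and 3 were lower at that p. Of 7 measured endothelium markers 4 had a higher mean, 3 of them at that p. None of these passed after adjustment. Of all genes 6.06% had such an unadjusted p and 51.5% had a higher mean in Dp5/Dp1. All levels are log2 values after RMA normalization, and every difference is Dp5/Dp1 minus control on the log2 scale.

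The promoters of Fos and of 4 of the genes with a positive slope on Fos from mouse to mouse (unadjusted p under 0.05) are shown with the letters TGACG in capitals, the core of the cAMP response element that CREB binds, because each holds it more than once. Each stretch holds the 250 bases before a transcription start in GRCm38.p6, read 5′ to 3′ on the strand of the gene. For Nr4a1, Nr4a3 and Npas4 that start lies inside the annotated span of the gene, not at its edge. TGACG on the other strand is marked as CGTCA. The Fos stretch is chr12:85473640-85473889 (plus strand), that of Nr4a1 chr15:101266596-101266845 (plus strand), that of Nr4a3 chr4:48045055-48045304 (plus strand), that of Npas4 chr19:4989972-4990221 (minus strand) and that of Dusp1 chr17:26508473-26508722 (minus strand).
Fos: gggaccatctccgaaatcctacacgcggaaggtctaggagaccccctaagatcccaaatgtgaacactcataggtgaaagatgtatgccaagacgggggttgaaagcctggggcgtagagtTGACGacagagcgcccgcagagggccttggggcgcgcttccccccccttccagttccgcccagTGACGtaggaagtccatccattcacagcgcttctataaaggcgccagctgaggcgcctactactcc
Nr4a1: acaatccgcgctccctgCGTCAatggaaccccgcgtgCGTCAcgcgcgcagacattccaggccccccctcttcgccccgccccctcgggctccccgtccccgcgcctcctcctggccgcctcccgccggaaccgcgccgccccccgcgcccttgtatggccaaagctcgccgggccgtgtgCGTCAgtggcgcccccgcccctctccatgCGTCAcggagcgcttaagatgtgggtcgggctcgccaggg
Nr4a3: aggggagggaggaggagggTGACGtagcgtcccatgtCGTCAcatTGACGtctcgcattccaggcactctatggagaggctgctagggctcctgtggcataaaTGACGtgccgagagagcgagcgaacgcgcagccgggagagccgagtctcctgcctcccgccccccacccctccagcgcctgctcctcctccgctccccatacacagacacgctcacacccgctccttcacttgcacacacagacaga
Npas4: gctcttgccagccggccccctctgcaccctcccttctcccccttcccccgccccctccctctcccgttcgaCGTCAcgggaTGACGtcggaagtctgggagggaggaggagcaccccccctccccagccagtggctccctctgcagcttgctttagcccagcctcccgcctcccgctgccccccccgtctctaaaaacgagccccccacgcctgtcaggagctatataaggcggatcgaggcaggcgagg
Dusp1: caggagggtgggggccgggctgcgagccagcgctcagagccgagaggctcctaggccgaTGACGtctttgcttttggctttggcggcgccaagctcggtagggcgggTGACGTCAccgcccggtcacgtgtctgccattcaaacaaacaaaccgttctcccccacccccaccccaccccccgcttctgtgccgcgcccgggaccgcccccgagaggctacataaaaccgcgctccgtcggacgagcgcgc
Fos held 2 TGACG, beginning at -129 and -66 counted from the start, and Npas4 and Dusp1 held 2 each, whereas Nr4a1 and Nr4a3 held 4 each. The second TGACG of Dusp1 is part of the whole palindrome TGACGTCA. By symbol, 29 of the 36 genes were matched to the RefSeq promoter sequences, and Ier2, Egr3, Nptx2, Trib1, Arc, Klf10 and Egr1 were not. TGACG on either strand was present in 19 of the 29 (65.5%), against 19.8% of 27025 genes over the same 250 bases. The palindrome, which contains it, was present in 3 (Maff, Dusp1 and Btg2, 10.3%), against 1.77%. TGACG was also present in Maff, Rheb and Bdnf, whose slopes on Fos did not reach an unadjusted p of 0.05. It was absent in Jun, Jund, Dusp6 and Gadd45b, which rose with Fos at that p. A link between the motif and the slope was not tested. The CArG box that the serum response factor binds was present in Egr2 and Dusp5 (6.9%, against 1.62%). TATAAA was present in Fos, Gadd45b, Gadd45g, Inhba and Sgk1 (17.2%, against 8.94%). Sites beyond the 250 bases were not searched, so these counts do not show that the other genes lack a motif. Where a gene has several starts, any of them counted. The promoters of these genes were also richer in G and C, with a median of 63.6%, against 52.4% over all genes in the table, and the part of base composition in the motif counts was not tested.

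No immediate early gene passed the test for a difference between Dp5/Dp1 and control hippocampus. In the limma fit with Benjamini-Hochberg adjustment over all genes, 0 of the 36 passed an adjusted p of 0.05, while 41 of 19938 genes did (0.206%). At an unadjusted p under 0.05 the count was again 0 of 36, against 6.06% of all genes. By the fold change rank method named in the methods (FCROS) 1 of the 36 was called, Inhba, which was lower, against 5.06% of all genes. In none of the 36 did the groups separate without overlap, against 1.08% of all genes. The mean was higher in Dp5/Dp1 for 17 and lower for 19, and the median difference was -0.0088, beside 0.0019 over all genes, of which 51.5% were higher. The difference was under 0.1 in size for 28 of the 36 and over 0.2 for Npas4, Inhba and Sgk1. In 31 of the 36 the 95% interval stayed within a 1.5-fold change in either direction. In Egr2, Npas4, Dusp1, Arc and Sgk1 it did not, so 5 arrays per group do not bound the change of these genes within 1.5-fold.

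**Figure D1:**
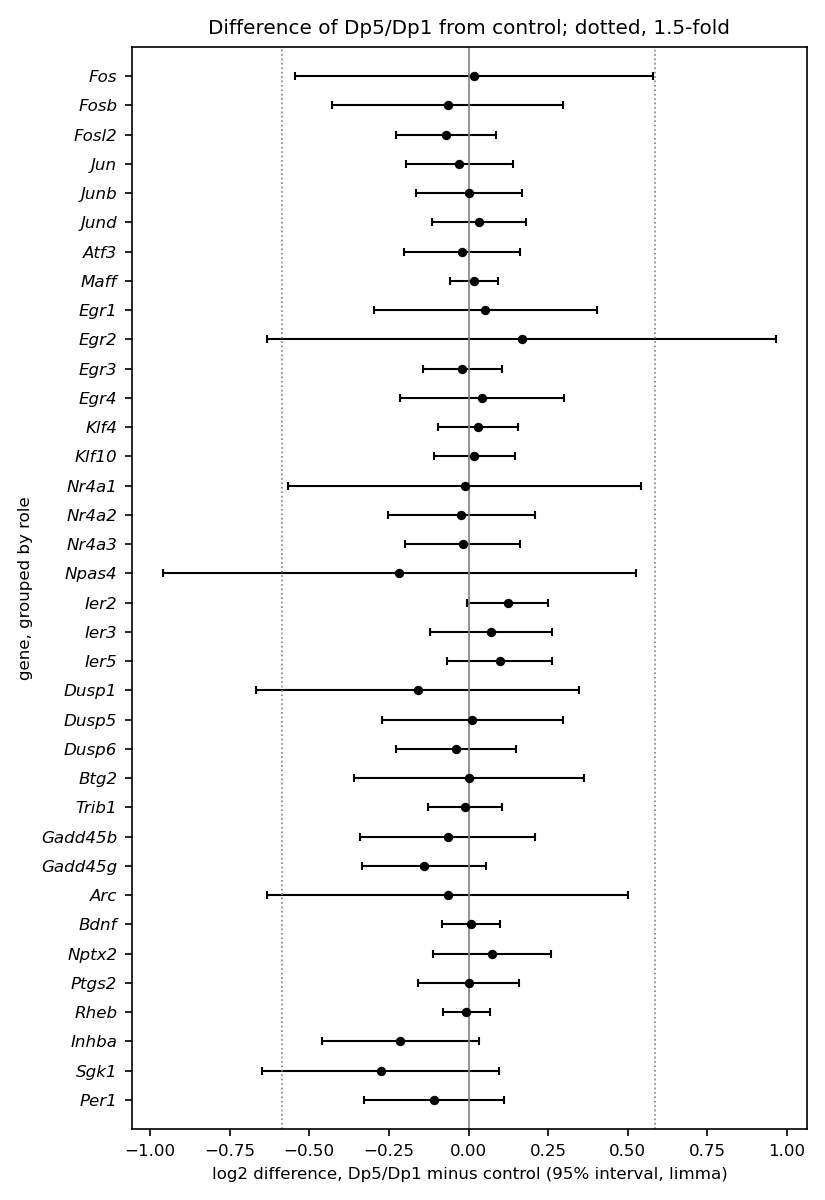
The log2 difference, Dp5/Dp1 minus control, of the 36 genes with its 95% interval from limma (5 arrays per group), grouped by role from top to bottom; dotted lines mark a 1.5-fold change. All 36 intervals include 0, and those of Egr2, Npas4, Dusp1, Arc and Sgk1 reach past a dotted line.

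Fos (chr12:85473890-85477274), which with a JUN protein forms the AP-1 factor and is the usual marker of a recently active neuron, was at 7.37, 7.53, 7.74, 7.25 and 6.52 in Dp5/Dp1 arrays 1 to 5, against 6.86, 7.59, 8.02, 6.91 and 6.95 in control arrays 1 to 5. The lowest Fos level was thus that of Dp5/Dp1 array 5 and the highest that of control array 3, a 2.82-fold span, and the groups overlapped over most of it. The mean was 7.28 ± 0.46 in Dp5/Dp1 and 7.26 ± 0.51 in control (SD, n = 5 each), a difference of 0.02 ± 0.26 (SE). Fosb (chr7:19302696-19310118), whose stable splice form gathers with repeated stimulation, was at 8.38, 8.36, 8.38, 8.37 and 8.14 in Dp5/Dp1 arrays, against 7.83, 8.51, 9.02, 8.29 and 8.31 in control arrays. Dp5/Dp1 arrays 1 to 4 thus lay within a narrow band inside the control range, and the difference was -0.07 ± 0.17. The other 6 AP-1 and related genes differed little. Jun, the partner of FOS, differed by -0.03, Junb by 0.00087, Jund by 0.03, Fosl2 by -0.07, the stress factor Atf3 by -0.02 and the small MAF factor Maff by 0.02, each by less than its SE.

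Npas4 (chr19:4984353-5003439), a factor of neurons that calcium entry induces, was at 9.16, 9.15, 9.04, 8.39 and 7.38 in Dp5/Dp1 arrays, against 8.31, 9.11, 9.58, 8.60 and 8.60 in control arrays. Dp5/Dp1 arrays 1 and 2 were above 4 of the 5 control arrays and Dp5/Dp1 array 5 was below all of them. The means were 8.62 ± 0.76 in Dp5/Dp1 and 8.84 ± 0.50 in control (SD, n = 5 each), and the difference was -0.22 ± 0.34 (adjusted p = 0.942). Without Dp5/Dp1 array 5 it was 0.09, so its direction rested on that array. Arc (chr15:74669081-74672570), whose protein promotes the removal of AMPA receptors from synapses, was at 10.08, 10.28, 10.53, 10.34 and 9.33 in Dp5/Dp1 arrays, against 9.58, 10.36, 10.96, 9.91 and 10.07 in control arrays. The difference was -0.06 ± 0.26, and it was 0.13 without Dp5/Dp1 array 5 and 0.13 without control array 3. For both genes the lowest array was Dp5/Dp1 5 and the highest control 3, as for Fos.

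**Figure D2:**
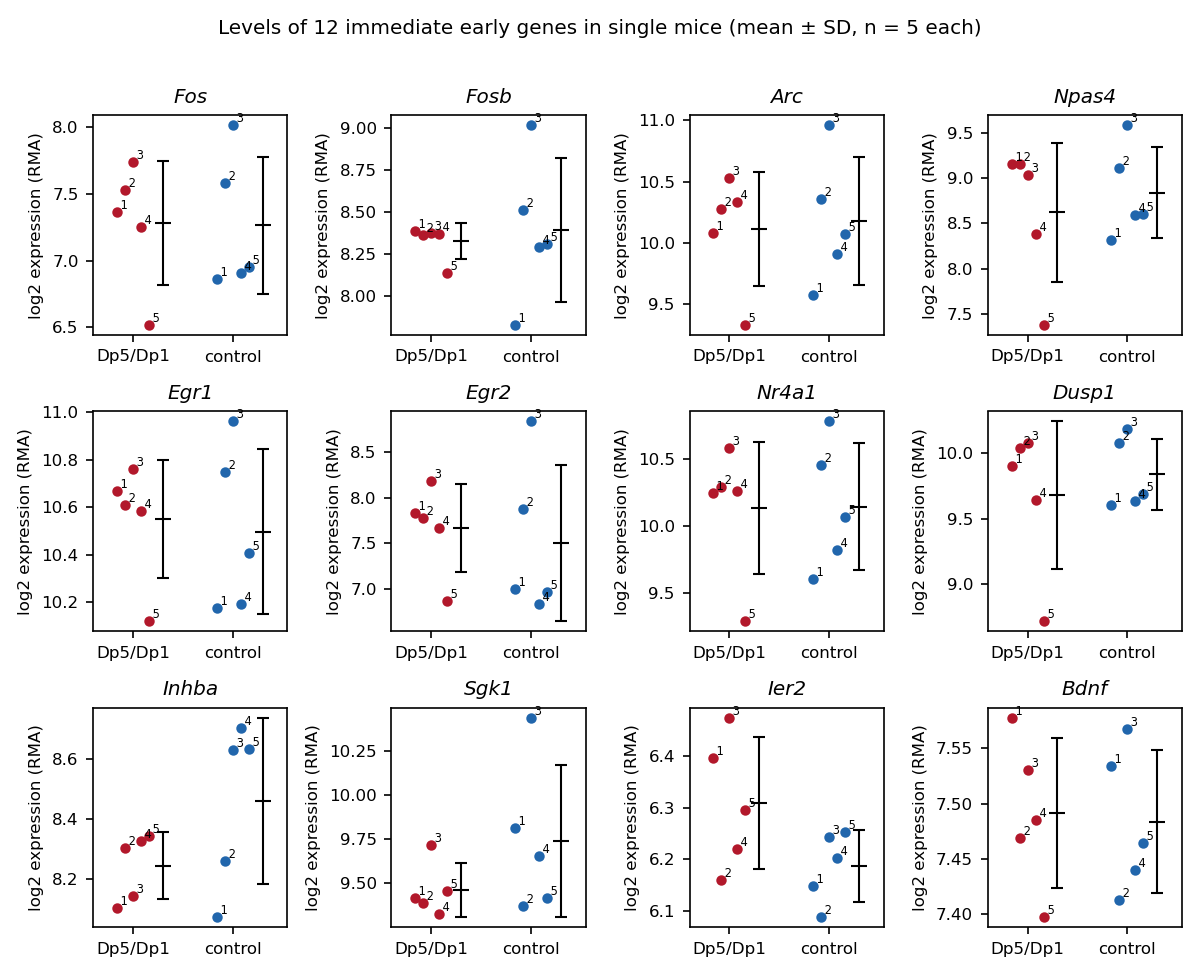
RMA log2 levels of 12 immediate early genes in single mice, Dp5/Dp1 left and control right, numbered by array, with the mean and SD of each group (n = 5). In Fos, Npas4, Arc, Egr1, Nr4a1 and Dusp1 the lowest point is Dp5/Dp1 array 5 and the highest control array 3, while in Inhba 3 control arrays (8.63 to 8.70) lie above all Dp5/Dp1 arrays.

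Of the EGR zinc finger factors, Egr1 (also known as Zif268, needed for lasting potentiation) was at 10.67, 10.61, 10.76, 10.59 and 10.12 in Dp5/Dp1 arrays, against 10.18, 10.75, 10.96, 10.19 and 10.41 in control arrays, a difference of 0.05 ± 0.16. Egr2 was at 7.83, 7.78, 8.18, 7.67 and 6.87 in Dp5/Dp1 arrays, against 6.99, 7.88, 8.84, 6.83 and 6.96 in control arrays, a difference of 0.17 ± 0.37. Its levels fell into 2 ranges, with 1 Dp5/Dp1 array and 3 control arrays between 6.83 and 6.99 and the other 6 arrays at 7.67 or above. Egr3, Egr4 and the Krüppel-like factors Klf4 and Klf10 differed by -0.02 to 0.04. Nr4a1 (Nur77), an orphan nuclear receptor, was at 10.24, 10.29, 10.58, 10.26 and 9.29 in Dp5/Dp1 arrays, against 9.60, 10.45, 10.78, 9.82 and 10.07 in control arrays. Dp5/Dp1 arrays 1 to 4 lay close together above 3 of the control arrays and Dp5/Dp1 array 5 lay below every other array, and the difference was -0.01 ± 0.25. Nr4a2 and Nr4a3 differed by -0.02 each.

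Of the genes that end or limit the signal, Dusp1, a phosphatase of MAP kinases, was at 9.90, 10.04, 10.08, 9.64 and 8.72 in Dp5/Dp1 arrays, against 9.61, 10.08, 10.18, 9.63 and 9.69 in control arrays. Dp5/Dp1 array 5 was thus below every control array and the other 4 lay within the control range, with a difference of -0.16 ± 0.23. Dusp5 and Dusp6, which act on ERK, differed by 0.01 and -0.04, the antiproliferative gene Btg2 by 0.0011, the pseudokinase gene Trib1 by -0.01 and Gadd45b, which takes part in DNA demethylation after activity, by -0.07. Gadd45g differed by -0.14 ± 0.09 (adjusted p = 0.845). Its control array 3 (8.22) was above the other 9 arrays, which lay between 7.55 and 7.92. Among the 3 IER genes, Ier2 was at 6.40, 6.16, 6.47, 6.22 and 6.29 in Dp5/Dp1 arrays, against 6.15, 6.09, 6.24, 6.20 and 6.25 in control arrays. Dp5/Dp1 arrays 1, 3 and 5 lay above all controls, and the limma fit gave it the lowest adjusted p of the 36 genes (difference 0.12 ± 0.06, adjusted p = 0.824). Ier2 is, with Atf3, Maff and Klf4, among the 40% of genes with the lowest mean, where RMA compresses differences. Ier5 differed by 0.10 ± 0.08 and Ier3 by 0.07 ± 0.09.

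Inhba (chr13:16004256-16031609), which encodes the activin A subunit that neurons release after activity and that protects them from excitotoxic death, was at 8.10, 8.30, 8.14, 8.33 and 8.34 in Dp5/Dp1 arrays, against 8.07, 8.26, 8.63, 8.70 and 8.63 in control arrays. Control arrays 3, 4 and 5 were above every Dp5/Dp1 array, control array 2 lay among them and control array 1 below them. The difference was -0.21 ± 0.11 (adjusted p = 0.832), and it lay between -0.31 and -0.15 when each array was left out in turn. Sgk1 (chr10:21882184-21999903), a kinase induced by glucocorticoids as well as by activity, was at 9.42, 9.39, 9.72, 9.33 and 9.46 in Dp5/Dp1 arrays, against 9.81, 9.37, 10.44, 9.65 and 9.42 in control arrays. Control array 3 was far above the rest, and the difference was -0.28 ± 0.17 with it and -0.10 without it. Per1, a clock gene that light, activity and glucocorticoids induce, differed by -0.11 ± 0.10, and it too was highest in control array 3 (9.78). The other effector genes differed little. Bdnf, the neurotrophin, differed by 0.01, Nptx2, which clusters AMPA receptors, by 0.07, Ptgs2 (cyclooxygenase-2) by 0.00052 and Rheb, the activator of mTORC1, by -0.0065. Of the 36 genes, 8 kept the sign of their difference under all of the 20 other settings in which they were tested. Fosl2, Gadd45g, Inhba and Sgk1 were lower, and Ier2, Ier3, Ier5 and Nptx2 higher. The filter on dim genes, the variance model and the replicate block do not alter the difference itself, and the other settings share most of their arrays. How many of all genes kept their sign was not counted. The lowest adjusted p of any of the 36 genes under any of these limma settings was 0.503.

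The spread between mice of the same group was wide in these genes. The residual SD within groups had a median of 0.159 over the 36 genes, beside 0.0698 over all 19938 genes. It exceeded the median of all genes in 33 of the 36, and 17 were in the top 5% of all genes. Egr2 spanned 4.03-fold over the 10 arrays, Npas4 4.60-fold, Arc 3.09-fold, Nr4a1 2.80-fold, Dusp1 2.76-fold, Fosb 2.28-fold and Egr1 1.79-fold. At the other end, Rheb and Maff had residual SDs of 0.0455 and 0.0490, below those of most genes. The SD was larger in Dp5/Dp1 than in control for 13 of the 36 genes, beside 47.4% of all genes. Fosb had an SD of 0.11 in Dp5/Dp1 and 0.43 in control, whereas Dusp1 had 0.56 in Dp5/Dp1 and 0.27 in control, and these differences in spread were not tested.

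The same mice were high or low in many of the genes. Dp5/Dp1 array 5 was the lowest array in 14 of the 36 genes, beside 11.5% of all genes, and control array 1 in 12, beside 11.9%. Control array 3 was the highest in 21 of the 36, among them Fos, Fosb, Arc, Npas4, Egr1, Egr2, Sgk1 and Per1, beside 12.2% of all genes. As a median over the 36 genes, Dp5/Dp1 array 5 lay at -0.14 and Dp5/Dp1 array 3 at 0.11 from the mean of the 10 arrays, and control array 1 lay at -0.16 and control array 3 at 0.27. The high and the low mice thus came from both groups.

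**Figure D3:**
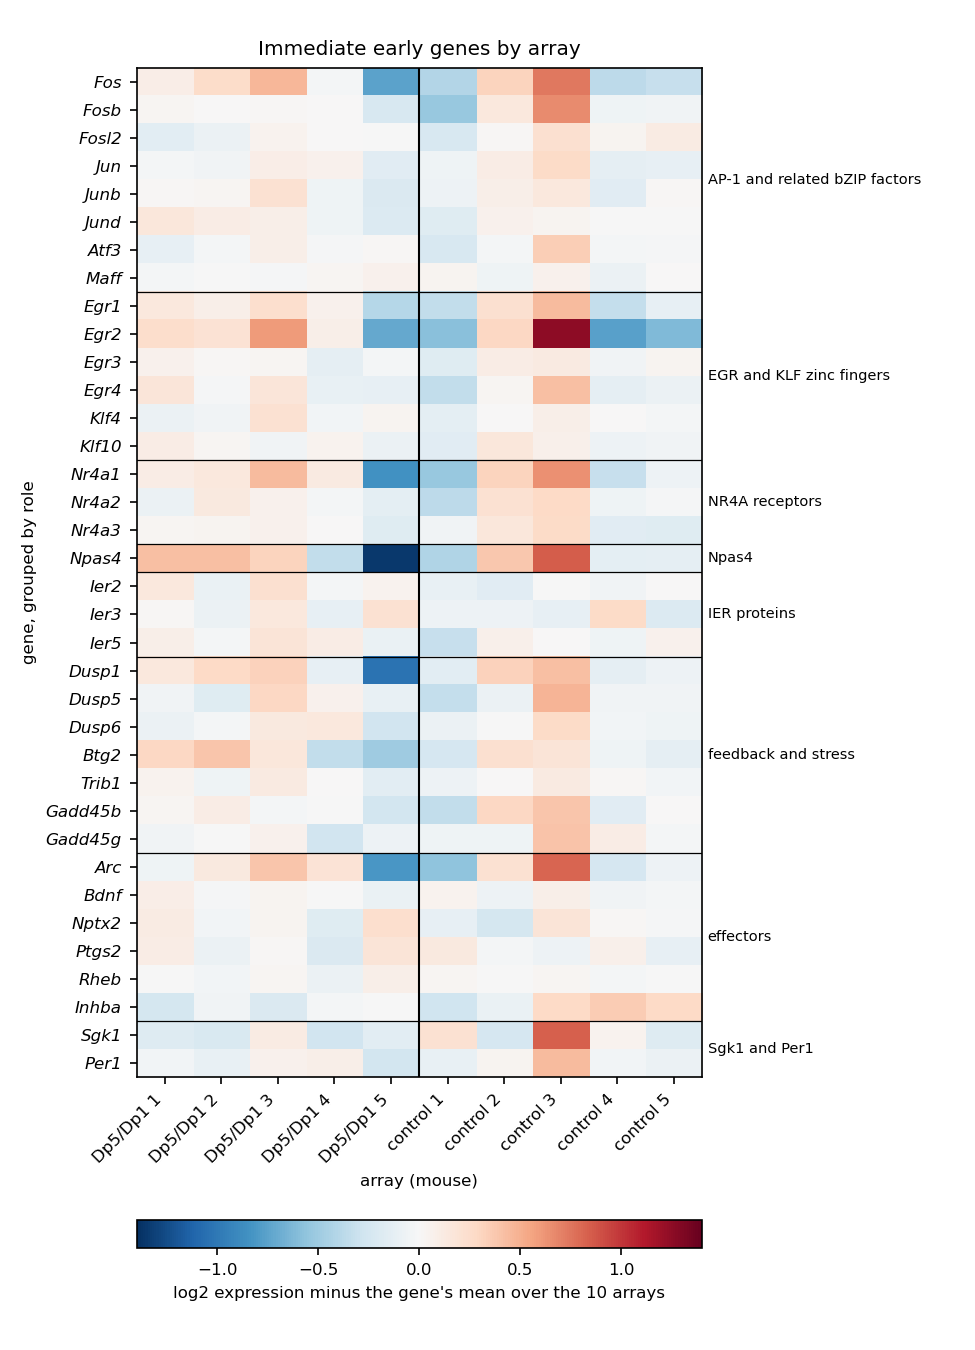
Deviation of the log2 level of each of the 36 genes from its mean over the 10 arrays, red above and blue below, with Dp5/Dp1 arrays left of the line and control arrays right of it. Dp5/Dp1 array 5 and control arrays 1, 4 and 5 are blue in most rows, Dp5/Dp1 array 3 and control array 3 are red in most, and Ptgs2 is red in Dp5/Dp1 array 5 and control array 1 and blue in control array 3.

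To ask which genes went with Fos from mouse to mouse, the level of every gene was fitted with limma on the Fos level of the array with the group as a second term. With an adjusted p under 0.05, 6 of 19937 genes rose with Fos (0.0301%), and 5 of the 6 are immediate early genes, namely Egr2, Nr4a1, Egr1, Arc and Npas4. For each unit of log2 Fos, Egr2 rose by 1.37 ± 0.12 (SE, adjusted p = 0.00193), Nr4a1 by 0.95 ± 0.08 (adjusted p = 0.00193), Egr1 by 0.60 ± 0.06 (adjusted p = 0.00254), Arc by 0.96 ± 0.10 (adjusted p = 0.00621) and Npas4 by 1.22 ± 0.16 (adjusted p = 0.0255). All of these but Arc encode transcription factors. Dusp1 followed with 0.82 ± 0.12 and an adjusted p just past the threshold (0.0501). The sixth gene, Ankrd34a, which is not an immediate early gene of the list, rose by 0.28 ± 0.04 (adjusted p = 0.0255). Of all genes 1 fell with Fos, Pdzd2, named here after its value was seen.

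The relation was also seen as a correlation over the 10 mice without a group term, for which 35 genes were set against Fos and the adjusted values are those of the limma slope over all genes. Pearson's r with Fos was 0.97 for Nr4a1 (permutation p = 1e-05, the smallest that 100000 resamples can give), with Spearman's rho 0.99 (permutation p = 1e-05) and r 0.93 without the 2 arrays farthest from the median Fos level, Dp5/Dp1 5 and control 3 (n = 8). For Egr1 r was 0.96 (permutation p = 1e-05) and rho 0.99 (permutation p = 1e-05), with r 0.94 in the 8 remaining arrays. For Egr2 r was 0.96 (permutation p = 3e-05) and rho 0.93 (permutation p = 0.00037), with r 0.96 in the 8. Nr4a1 and Egr1, like Dusp1 below, kept the order of the mice most closely (rho 0.99). For Arc r was 0.95 (permutation p = 9e-05) and rho 0.96 (permutation p = 9e-05), with r 0.86 in the 8. For Npas4 r was 0.90 (permutation p = 0.0003) and rho 0.84 (permutation p = 0.00378), with r 0.81 in the 8. For Dusp1 r was 0.89 (permutation p = 4e-05) and rho 0.99 (permutation p = 2e-05), with r 0.93 in the 8. The relation of these 6 genes to Fos was therefore present without the 2 extreme mice.

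**Figure D4:**
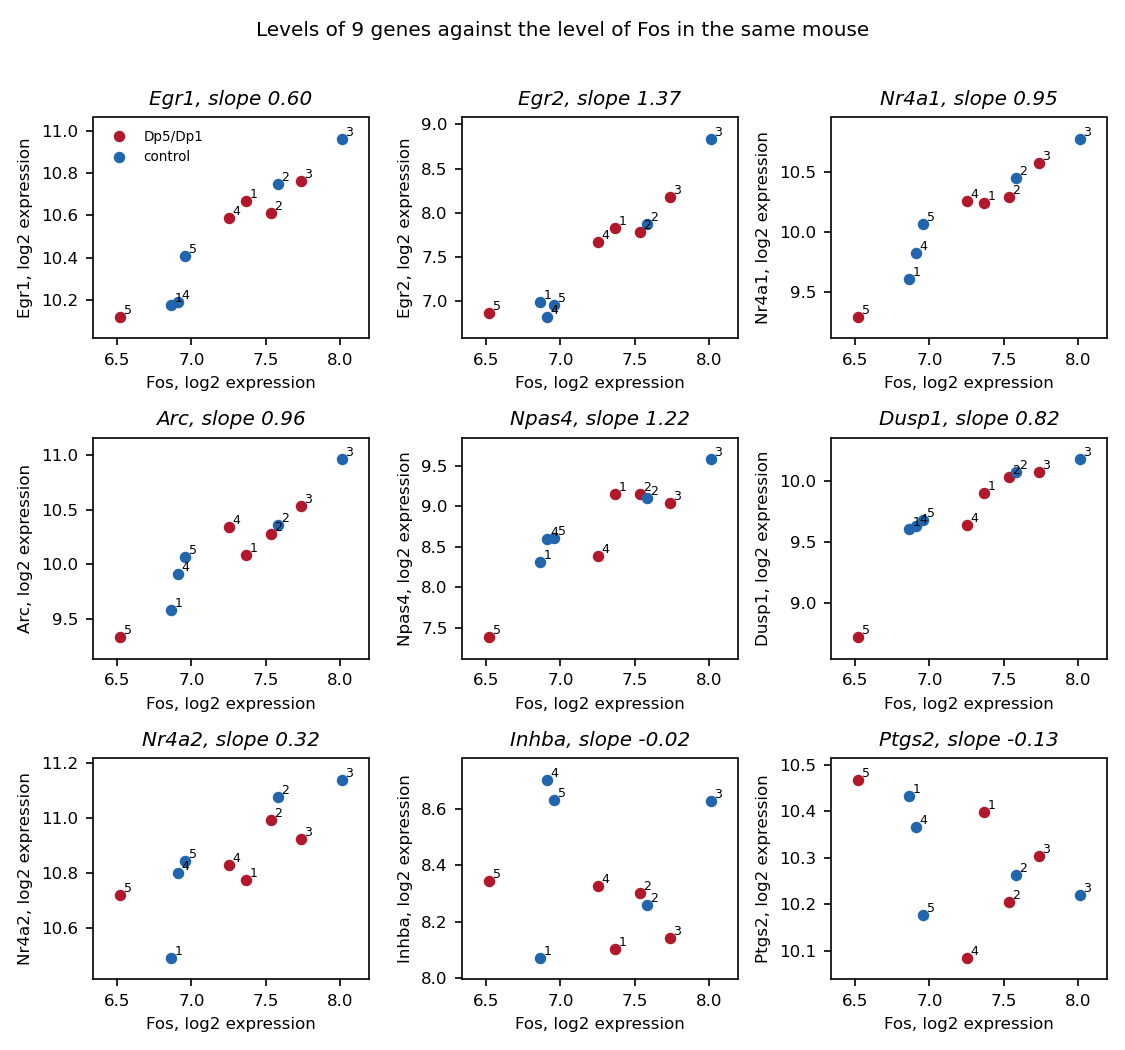
RMA log2 levels of 9 genes (vertical axis) against that of Fos (horizontal axis) in the same mouse, Dp5/Dp1 in red and control in blue, numbered by array, with the slope on Fos over each panel. Points of both groups mix along the rise in Egr1, Egr2, Nr4a1, Arc and Npas4, while Inhba (slope -0.02) and Ptgs2 (slope -0.13) have slopes below 0.

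Most of the other genes had smaller positive slopes. The slope was positive in 29 of 35 genes, beside 51.8% of all genes, with a median of 0.25, beside 0.0024 over all genes. At an unadjusted p under 0.05, 22 of the 35 had a positive slope, against 7.72% of all genes, and 0 a negative one. Within the AP-1 genes, Fosb had a slope of 0.51 ± 0.12, Jun of 0.26 ± 0.05, Junb of 0.25 ± 0.05, Jund of 0.18 ± 0.06 and Atf3 of 0.19 ± 0.08, while Fosl2 (0.11 ± 0.08) and Maff (-0.01 ± 0.04) did not reach an unadjusted p of 0.05. All 6 zinc finger genes and all 3 NR4A genes had a positive slope, among them Egr4 (0.37 ± 0.08), Nr4a2 (0.32 ± 0.08) and Nr4a3 (0.28 ± 0.05). All 7 feedback and stress genes did so too, with Btg2 at 0.49 ± 0.13, Gadd45b at 0.41 ± 0.08, Dusp5 at 0.35 ± 0.11, Dusp6 at 0.27 ± 0.06 and Trib1 at 0.15 ± 0.04. Apart from Egr1, Egr2 and Nr4a1, none of the genes in these groups passed the adjusted threshold.

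Of the effector genes apart from Arc, most had slopes that could not be told from 0. Inhba (-0.02 ± 0.13), Nptx2 (-0.03 ± 0.10), Rheb (-0.02 ± 0.04), Ptgs2 (-0.13 ± 0.08) and Bdnf (0.07 ± 0.04) had slopes whose 95% intervals included 0, as had Ier2, Ier3 and Ier5. The Bdnf and Nptx2 intervals were -0.03 to 0.17 and -0.25 to 0.19, and the study counts both as late response genes. Sgk1 had a slope of 0.32 ± 0.18 that rested on the extreme mice, since its r with Fos was 0.43 over 10 arrays and -0.30 without Dp5/Dp1 5 and control 3, and rho was 0.03 (permutation p = 0.946). Per1 had a slope of 0.32 ± 0.07, with r 0.80 (permutation p = 0.00313), rho 0.67 (permutation p = 0.0399) and r 0.49 in the 8 arrays. Over the whole set, r with Fos was above 0.7 in 18 of 35 genes with 10 arrays and in 13 with 8.

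**Figure D5:**
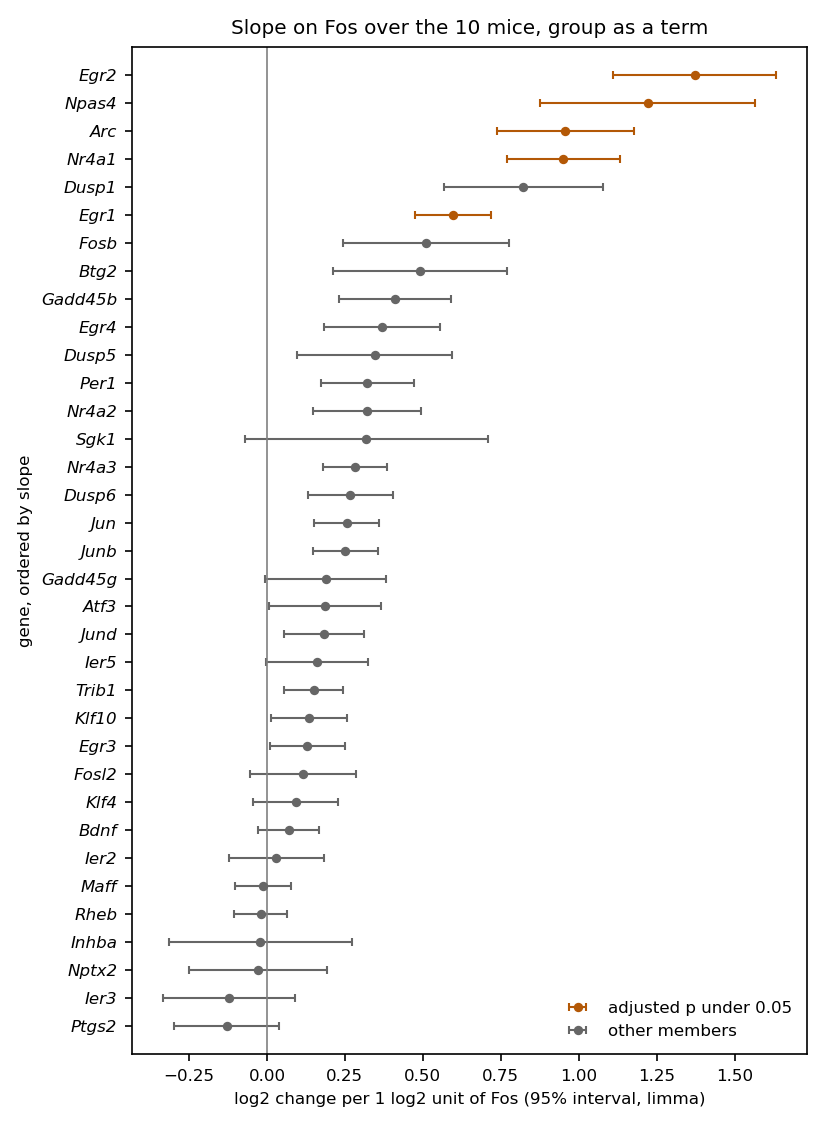
Slope of 35 immediate early genes on Fos over the 10 arrays, as the log2 change per 1 log2 unit of Fos with its 95% interval (limma, group as a term), in the order of the slope; the genes in orange passed an adjusted p of 0.05. Egr2, Npas4, Arc, Nr4a1 and Egr1 passed, Dusp1 (0.82) missed the threshold, and the 6 lowest genes have slopes below 0.

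The genes also went with each other. After the group means were removed, r was above 0.7 in 166 of the 630 pairs of the 36 genes (26.3%), beside 2.53% of all gene pairs, and below -0.7 in 0, beside 2.31% of all gene pairs. The 10 arrays are shared by all pairs, so this is a description. The closest pair was Nr4a1 with Arc (r = 0.98), followed by Egr1 with Nr4a1 (0.97), Fos with Egr1 (0.97), Fos with Nr4a1 (0.97) and Npas4 with Dusp1 (0.96). Egr1 had 21 partners above 0.7 and Nr4a1 had 20, while Maff, Ier2, Ier3 and Bdnf had 0.

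Which genes passed depended on single mice and on the model. Of the 5 genes, Egr2 passed the adjusted threshold whichever single array was left out (adjusted p between 0.00341 and 0.0109). Nr4a1 missed it without Dp5/Dp1 array 5 (adjusted p = 0.0522), and Egr1 missed it without Dp5/Dp1 array 5 (0.0522) and without control array 3 (0.0561). Arc missed it without Dp5/Dp1 array 5 (0.165) and without control array 3 (0.123). Npas4 missed it without Dp5/Dp1 array 2 (0.0587) or 5 (0.324) and without control array 1 (0.10), 2 (0.0792), 3 (0.123), 4 (0.0507) or 5 (0.0610). With the replicate number as a block Egr2 (adjusted p = 0.0915) and Npas4 (0.0997) missed it. Npas4 also missed it when the variance was fitted robustly with a trend on intensity (0.0735). Without both Dp5/Dp1 array 5 and control array 3, 0 genes passed (adjusted p of the 5 between 0.289 and 0.992), although 28 of 35 slopes were still positive and those of the 5 genes lay between 0.62 for Egr1 and 1.25 for Egr2.

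Low Fos levels were found mostly in arrays high in the choroid plexus markers. The arrays fell into 5 with low marker means (6.85 to 7.26) and 5 with high ones (8.23 to 8.88), and the 4 lowest Fos levels were all among the 5 high arrays, while the remaining one of these, Dp5/Dp1 array 3, had the second highest Fos level. Because the arrays form 2 sets no r is given, and of 8 marker lists set against Fos over the 10 arrays 0 passed after adjustment (for the choroid plexus markers, adjusted permutation p = 0.249). All 12 markers had a negative slope on Fos, 11 of them at an unadjusted p under 0.05 and 0 at an adjusted one. Of all genes 51.8% had a positive slope, and how many fell at that unadjusted p was not counted. All 12 markers also had a lower mean in Dp5/Dp1, with 0 called, while 51.5% of all genes had a higher one. Ttr, the transthyretin gene that the choroid plexus expresses most, ranged from 9.30 to 13.45 over the arrays. With the marker mean as a covariate, 0 immediate early genes passed the adjusted threshold (adjusted p of the 5 between 0.0728 and 0.471), while the slopes of the 5 genes were 0.49 for Egr1, 0.88 for Nr4a1, 0.91 for Arc, 1.17 for Npas4 and 1.29 for Egr2, and 31 of 35 slopes were positive. Within the 5 arrays low in the markers (3 Dp5/Dp1 and 2 control), a split made after the values were seen, the slopes were 1.52 for Egr2, 1.25 for Npas4, 0.99 for Arc, 0.73 for Nr4a1, 0.62 for Dusp1 and 0.48 for Egr1. Within the 5 arrays high in them (2 Dp5/Dp1 and 3 control) they were 1.19 for Egr2, 1.17 for Npas4, 0.96 for Arc, 1.03 for Nr4a1, 0.95 for Dusp1 and 0.56 for Egr1. The slope was positive in 32 of 35 genes in the first set and in 29 of 35 in the second, beside 51.6% and 51.1% of all genes. The median slope over the 35 genes was 0.39 in the first set and 0.21 in the second, and with 5 arrays in each no test was made. In the first set Fos was at 8.02 in control array 3 and between 7.25 and 7.59 in the others. In the second it was at 7.74 in Dp5/Dp1 array 3 and between 6.52 and 6.95 in the others. The Fos range of each set thus rests largely on 1 array. Of the 10 markers of hippocampal neurons, 4 had a positive slope on Fos, beside 51.8% of all genes. At an unadjusted p under 0.05, 4 fell with Fos and 0 rose, against 7.72% of all genes that rose. At an adjusted p 0 passed. Among those that fell were Bok (-0.18 ± 0.05, adjusted p = 0.215) and Prox1 (-0.21 ± 0.06, adjusted p = 0.252). The part of choroid plexus tissue, or of the make-up of the dissection, in the relation to Fos was not tested.

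Outside the 36 genes, those most like Fos by the same fit were, after Ankrd34a, Ccdc149 (slope 0.28, adjusted p = 0.0501), Zfp467, Apold1, Sik1, Plk3, Yipf2, Zfp286, Rsrp1, Hsdl1, Nelfb and Gpr19, none of which passed the threshold. Apold1, an early gene of the vessel wall, had a slope of 0.42 ± 0.07, the salt-inducible kinase gene Sik1 of 0.54 ± 0.09 and the polo-like kinase gene Plk3 of 0.31 ± 0.05, and the last 2 are in the list of later and further activity-regulated genes. Of the 36 genes of that list 32 were measured. In them 0 were called between Dp5/Dp1 and control, 14 had a higher mean in Dp5/Dp1, beside 51.5% of all genes, and the median difference was -0.01. On Fos 24 of the 32 had a positive slope (median 0.07), beside 51.8% of all genes. At an unadjusted p under 0.05, 11 rose with Fos, against 7.72% of all genes, and 1 fell, while 0 passed at an adjusted one. Ccn1, a secreted matrix protein, had a slope of 0.56 ± 0.10 (adjusted p = 0.130). The list of kinases, calcium channels and factors upstream of the immediate early genes held 37 genes, 31 of them measured. Of these 0 were called and 9 had a higher mean in Dp5/Dp1, beside 51.5% of all genes. An unadjusted p under 0.05 was found for 2, a share near the 6.06% of all genes. On Fos 21 of the 31 had a positive slope, beside 51.8% of all genes. At an unadjusted p under 0.05, 8 rose, against 7.72% of all genes, and 1 fell. The lowest p was that of Crtc3, a coactivator of CREB (0.16 ± 0.05, adjusted p = 0.283).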

How the data were processed

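Total RNA of the full hippocampus of 5 Dp5/Dp1 and 5 control male mice was hybridised to Affymetrix Mouse Gene 1.0 ST arrays. The authors normalized the arrays by RMA and deposited log2 expression values, which are compressed for dim probe sets and given nearly equal distributions by the quantile step. RMA, limma and mm10 stand in the processing notes of the submitters, and their versions are not given in the sources used here. The labels and the methods differ on the amount of RNA used. Of 35556 probe sets, the 21789 with exactly 1 gene symbol were used, and for the 999 genes with several of these the one with the highest mean was read, which left 19938 genes. Positions are those of GRCm38.p6, the same assembly as mm10.

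Groups came from the condition label. The groups were compared with lmFit and eBayes of limma 3.58.1 (R 4.3.3), two-sided and without covariates. P-values were adjusted over all genes by Benjamini-Hochberg, and "called" and "passed" refer to a threshold of 0.05. The slope of each gene on Fos was fitted with limma with the group as a term. FCROS was rewritten from its description over the 25 pairs of arrays, with a tail of 0.025. Permutation tests used 100000 resamples and were two-sided. The fits were tested on simulated data. Nothing in the labels ties arrays of the same number together, and same-numbered arrays did not deviate together. The number of arrays limits the precision.

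All 36 genes were eligible to be named. The group differences of Fos, Fosb, Arc, Npas4 and the 6 others with the lowest p were recomputed under the limma alternatives, except Ier2 under the filter on dim genes, which leaves it out, and outside the set the 12 genes most like Fos and up to 3 genes per list were named. The members and lists were chosen with earlier results of these data known. The alternatives covered filters, normalization, probe set choice, variance model, array weights, a replicate block, marker covariates and arrays left out. The split by choroid plexus markers and the removal of Dp5/Dp1 array 5 together with control array 3 were chosen after the values were seen.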

Additional observations from a re-analysis of the deposited data

Results flagged for a closer look

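In 7 of the 72 gene and group combinations of the 36 genes, 1 array stood apart from the other 4 by Dixon's test, which chance does in about 1 in 20. The combinations share the same mice and many of the genes go together, so they are not independent cases. Dp5/Dp1 array 5 was low in Fosb (8.14, with the others between 8.36 and 8.38), in Egr1 (10.12, others 10.59 to 10.76), in Nr4a1 (9.29, others 10.24 to 10.58) and in Nr4a3 (10.13, others 10.30 to 10.35). Control array 3 was high in Dusp6 (10.26, others 9.91 to 9.99) and in Per1 (9.78, others 9.23 to 9.38). Control array 4 was high in Ier3 (7.60, others 7.15 to 7.27), a gene that did not follow Fos.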

How the results depend on the processing

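No immediate early gene was called between Dp5/Dp1 and control under any limma setting, and FCROS called 1 (1008 genes in all). The count of all genes called was 26 with the replicate number as a replicate block, 27 with choroid plexus and habenula marker covariates and 21 without Dp5/Dp1 arrays 2 and 5, beside 41. Deviations of arrays of the same number correlated between -0.35 and 0.29, and only for number 2 was the own number the best match, so the numbers do not pair the mice. The block gave 37 genes rising with Fos, 3 of them immediate early genes, beside 6 and 5.

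The number of immediate early genes with a higher mean in Dp5/Dp1 was 10 with either set of covariates and 30 without Dp5/Dp1 array 5 and control array 3, and between 8 and 27 with single arrays left out. The difference of Fos was -0.13 with the choroid plexus covariate and -0.18 with both. That of Arc was 0.052 with array weights, 0.14 without Dp5/Dp1 arrays 2 and 5 and 0.33 without Dp5/Dp1 array 5 and control array 3. Without the first pair Npas4 differed by 0.020, and without the second Npas4 differed by 0.28, Fosb by 0.14 and Per1 by 0.041. With single arrays left out the difference ran from -0.10 to 0.21 for Fos, from -0.21 to 0.13 for Arc, from -0.35 to 0.092 for Npas4 and from -0.21 to 0.091 for Fosb. None of these passed the test, and the cause was not tested.

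With either set of covariates 0 genes rose with Fos at an adjusted p under 0.05, with Dp5/Dp1 array 5 and control array 3 left out 0, and without Dp5/Dp1 arrays 2 and 5 only 1, Egr2. With single arrays left out the count was between 1 and 10, of which between 1 and 6 were immediate early genes. With Arc in place of Fos 10 genes rose, 4 of them immediate early genes. Fits with fewer arrays or more terms have fewer degrees of freedom.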

Other observations

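Genes of the circadian clock, of which Per1 is one, had lower means in Dp5/Dp1 for the most part. Of the 13 measured genes of a list of 15, 12 had a lower mean (median difference -0.10), while 51.5% of all genes had a higher one. At an unadjusted p under 0.05, 4 were lower (6.06% of all genes in either direction), and 0 passed at an adjusted one. The genes were read in the same mice and are not independent. Per2, a repressor of the clock, was at 8.45 ± 0.10 in Dp5/Dp1 and 8.66 ± 0.15 in control (SD, n = 5 each), a difference of -0.22 ± 0.07 (SE, limma adjusted p = 0.738). Nr1d1, which encodes REV-ERB alpha, differed by -0.12 ± 0.05 (adjusted p = 0.806) and Bhlhe41, another repressor, by -0.11 ± 0.05 (adjusted p = 0.812). On Fos 6 of the 13 had a positive slope, beside 51.8% of all genes. At an unadjusted p under 0.05, 2 rose, against 7.72% of all genes, and 2 fell. Arntl, which encodes the activator BMAL1, had a slope of 0.25 ± 0.05 (adjusted p = 0.130) and Cry2 one of 0.14 ± 0.04 (adjusted p = 0.252). Dbp, an output gene of BMAL1, had a slope of -0.26 ± 0.09 (adjusted p = 0.305).

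Of the 15 genes induced by glucocorticoids, as Sgk1 and Per1 are, 12 had a lower mean in Dp5/Dp1 (median difference -0.06) and 0 were called. Of all genes 51.5% had a higher mean. Plin4, a lipid droplet protein gene, was at 6.77 ± 0.19 in Dp5/Dp1 and 7.11 ± 0.42 in control (SD, n = 5 each, limma adjusted p = 0.832). On Fos 3 of the 15 had a positive slope, beside 51.8% of all genes. At an unadjusted p under 0.05, 2 rose, against 7.72% of all genes, and 1 fell. Ddit4, an inhibitor of mTORC1, had a slope of 0.36 ± 0.07 (adjusted p = 0.149) and Nfkbia one of 0.24 ± 0.10 (adjusted p = 0.393). Plin4 had a slope of -0.44 ± 0.16 (adjusted p = 0.323).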
